A study of Mus musculus with 12 samples.

Results

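The miRNA profile of the mouse frontal cortex (FCx) was described from the 6 small-RNA sequencing samples labelled frontal cortex, of 12 samples in the series. The tissue came from adult male C57BL/6J mice that arrived at 7 weeks of age, were housed singly for 1 week and were killed at 8 weeks. The labels name no treatment. The labels place the dissected cortex in a slice between Bregma -1.5 and -3.5. Tissue of 3 mice was pooled before total RNA was extracted, and RNA of this single pool was ligated to 5′ adaptors carrying 3 different 6-nucleotide indexes (3, 7 and 11), each sequenced in a lane of its own and again in a lane shared by all 3. The 2 runs of each index were summed, which gave 3 libraries. The profile therefore stands for 1 condition.

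The 3 libraries share their RNA. Each index was a library prepared on its own, so the index cannot be told apart from the steps of its preparation, and the spread is technical and holds no difference between animals. Unless stated otherwise, levels are counts per 1000000 miRNA counts of a library (CPM), values are listed in the order index 3, index 7 and index 11, and ± gives the SD of the 3 libraries (n = 3). In bulk tissue, fewer cells of a type and less RNA per cell cannot be told apart.

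MiRNAs are small RNAs cut from hairpin precursors, and they guide Argonaute proteins to messenger RNAs that pair with bases 2 to 8 of the miRNA, the seed. MiRNAs with the same seed form a family with overlapping targets, and hairpins that lie close together on a chromosome are often cut from a shared primary transcript. In the adult cortex the let-7 family is linked to the differentiated state, miR-128, miR-124, miR-9 and miR-132 are known from neurons, and miR-219 and miR-338 from oligodendrocytes.

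The sequences below carry most of the profile: the abundant members of the let-7 and miR-29 families, and the leading members of the other abundant seed families, together with miR-137, whose level depended most on the index. They are RefSeq mature sequences of the GRCm38.p6 annotation, written 5′ to 3′, with the seed in capitals.
let-7c: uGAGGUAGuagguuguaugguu
let-7b: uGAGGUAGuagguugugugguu
let-7a: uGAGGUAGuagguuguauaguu
let-7f: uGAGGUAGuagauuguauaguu
let-7e: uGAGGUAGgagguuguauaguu
let-7d: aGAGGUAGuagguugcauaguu
let-7g: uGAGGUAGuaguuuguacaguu
let-7i: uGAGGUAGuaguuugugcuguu
miR-98: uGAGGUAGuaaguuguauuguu
miR-128: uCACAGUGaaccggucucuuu
miR-29a: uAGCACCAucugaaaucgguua
miR-29c: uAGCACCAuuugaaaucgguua
miR-29b: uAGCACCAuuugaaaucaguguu
miR-9: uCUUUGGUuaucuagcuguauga
miR-125b-5p: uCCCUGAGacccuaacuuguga
miR-132: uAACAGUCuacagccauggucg
miR-26a: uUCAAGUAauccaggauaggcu
miR-103: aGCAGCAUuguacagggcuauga
miR-137: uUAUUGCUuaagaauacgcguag

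Within the let-7 family, let-7a differed from let-7c, from let-7f and from let-7e at 1 of 22 bases each, and let-7c also differed from let-7b at 1 base. The files were made by aligning reads with up to 2 mismatches, and 14 of the 36 pairs of let-7 members differed by no more than that, as did miR-29a and miR-29c, miR-26a and miR-26b, and miR-103 and miR-107. Levels of such close members are therefore less certain than the level of their family. Of the detected miRNAs with a RefSeq sequence, 133 begin with U and held 87.1% of all counts, while 90 begin with A, 55 with C and 31 with G.

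Total miRNA counts were 391410 with index 3, 1461732 with index 7 and 652449 with index 11, so 100 CPM corresponds to 39.1, 146 and 65.2 counts, and a count of 0 allows up to 7.66, 2.05 and 4.60 CPM (3 counts). For let-7c the 95% Wilson interval of its share ran from 18.7 to 18.9% with index 3, from 24.6 to 24.8% with index 7 and from 19.7 to 19.9% with index 11. The libraries thus differed by more than counting error, and the 3 intervals were all apart for most of the 50 most abundant miRNAs. The exceptions were let-7b, miR-127, miR-30a and miR-27b, for which intervals overlapped between libraries. Reads carry no molecular identifiers, and these intervals and limits cover counting error only. The 2 lanes of a library lay much closer together: over 142 miRNAs averaging 100 CPM or more, the median ratio of the higher to the lower lane was 1.11, 1.15 and 1.11.

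The profile was steep. Only 14 miRNAs had a mean of at least 10000 CPM, and together they held 81.1, 86.6 and 87.5% of the counts (85.1% ± 3.47). A further 36 lay between 1000 and 10000 CPM with 11.2% ± 2.86 of the counts, and 92 lay between 100 and 1000 CPM with 3.26% ± 0.531. The remaining classes, 111 miRNAs of 10 to 100 CPM and 117 under 10 CPM, held 0.418% ± 0.0675 and 0.0467% ± 0.0131. Detection was incomplete in this tail: 303 of the 370 miRNAs with at least 2 counts over the 6 files had a count at every index, and none of the 67 others exceeded a mean of 36.9 CPM.

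Class membership itself depended on the library. Of the 14 miRNAs in the top class, 9 were at or above 10000 CPM with every index, whereas only 10 of the 36 in the class below and 36 of the 92 in the class from 100 to 1000 CPM stayed in their class. Seen from the number of species, 4 miRNAs held 50% of the counts with index 3 and 3 each with index 7 and index 11, 90% was held by 24, 16 and 15, and 99% by 110, 91 and 90. The library with index 3 was the most even of the 3.

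**Figure D1:**
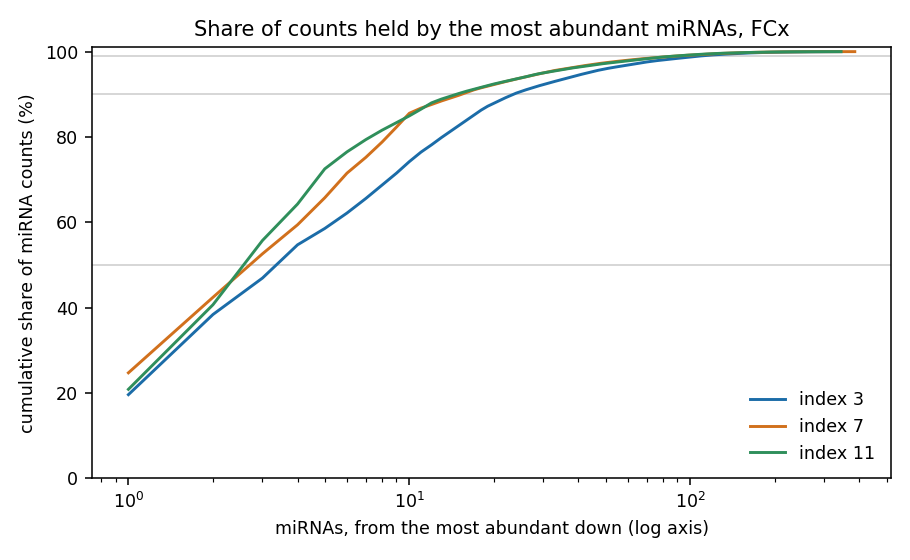
Cumulative share of miRNA counts (y axis, %) against the number of miRNAs from the most abundant down (x axis, log scale) for the 3 FCx libraries, 1 line per index, with grey lines at 50, 90 and 99%. The line of index 3 runs below the others and reaches 90% with 24 miRNAs, against 16 for index 7 and 15 for index 11.

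The most abundant species were let-7c and miR-128. Let-7c was read at 187892, 247188 and 198333 CPM (211138 ± 31654) and miR-128 at 196009, 177013 and 208464 CPM (193829 ± 15839). Their order was not fixed, since miR-128 was above let-7c with index 3 and index 11. Let-7b (85353, 101924 and 85401 CPM) and let-7a (77959, 63341 and 82497 CPM) also ranked among the first 5 in every library, so that these 4 miRNAs formed the constant top of the profile.

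MiR-29a, a regulator of collagen and DNA methyltransferase messages, came between them on average (84945 ± 59008 CPM) but ran from 36236 with index 3 over 68039 with index 7 to 150560 with index 11. Let-7f followed with 38313, 35030 and 39862 CPM, the narrowest range among the 142 miRNAs averaging 100 CPM or more. MiR-124, which represses non-neuronal transcripts in neurons, was at 27912, 57775 and 4091 CPM. It was at rank 19 with index 11 and at rank 6 with index 7.

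Let-7e had 34064, 35979 and 15773 CPM. MiR-9, which acts in neural progenitors and neurons, had 17202, 36936 and 28695 CPM. Let-7d had 22217, 32299 and 15638 CPM. Let-7e was read above let-7d with every index, and miR-9 changed place against both. With index 11 the order of let-7e and let-7d was within counting error. Their Wilson intervals there were 15473 to 16078 and 15340 to 15942 CPM.

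Below them stood miRNAs with means between 9627 and 13232 CPM. MiR-132, induced by neuronal activity through CREB, was at 16806, 731 and 22160 CPM. MiR-125b-5p, a miRNA found at dendrites, was at 27061, 3404 and 8732 CPM, and let-7g at 12626, 6333 and 14928 CPM. For miR-132 the library with index 7 was the low one, far below the other two.

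MiR-137, a brain miRNA that acts in neuronal maturation, owed its place to index 3. It had 12313 counts there against 39 and 40 with the others, which is 31458, 26.7 and 61.3 CPM, and without the library of index 3 its mean was 44.0 CPM. MiR-26a closed the list at 13597, 8510 and 6774 CPM. With the median of the 3 libraries in place of the mean, 14 of the 15 miRNAs remained and miR-103 took the place of miR-137.

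Of the 15, 10 ranked among the first 15 in all 3 libraries: let-7c, miR-128, let-7b, miR-29a, let-7a, let-7f, let-7e, miR-9, let-7d and miR-26a. In all, 22 different miRNAs were among the first 15 of at least 1 library. Of the 15 steps from a miRNA to the next lower one, only 3 had the same direction in all 3 libraries, namely miR-128 over let-7b, let-7a over let-7f, and miR-26a over miR-127.

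**Figure D2:**
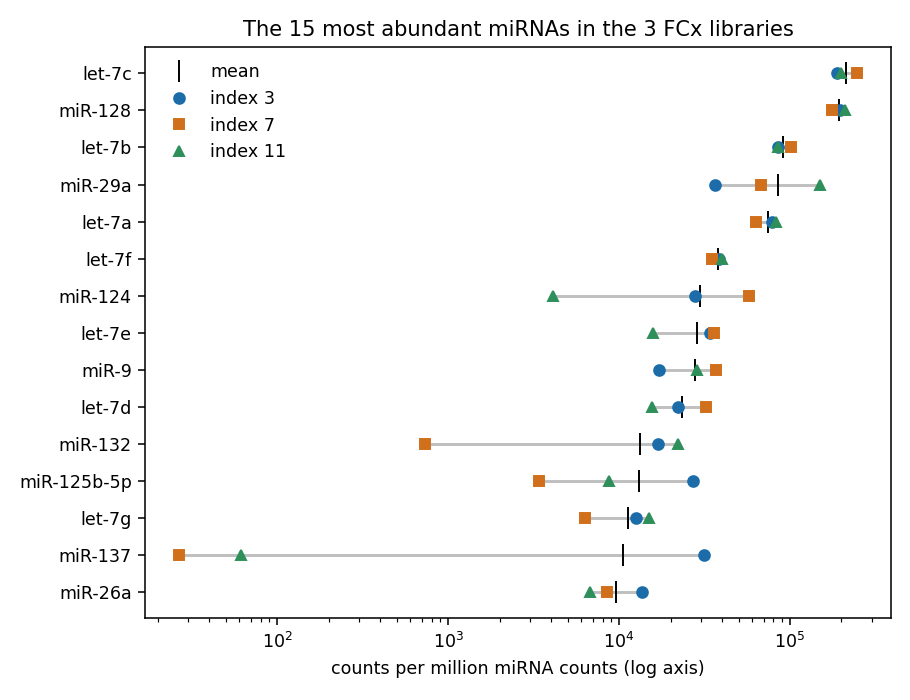
CPM (x axis, log scale) of the 15 miRNAs with the highest mean in FCx, with 1 symbol per library (circle, index 3; square, index 7; triangle, index 11), a black tick at the mean and a grey line over the range. Let-7c, miR-128, let-7b, let-7a and let-7f have tight symbols, whereas miR-137 spans from 26.7 to 31458 CPM.

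Levels that held at every index were a minority. Among the 142 miRNAs averaging 100 CPM or more, the highest library was less than 2-fold above the lowest for 24 (16.9%), and at least 4-fold above it for 74 (52.1%). In the class of at least 10000 CPM, 5 of 14 stayed under 2-fold and the median ratio was 2.21. In the next classes 4 of 36 and 15 of 92 did so, with median ratios of 5.21 and 4.29.

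Of the abundant miRNAs that held, let-7f had the smallest ratio of highest to lowest CPM (1.14), followed by miR-128 (1.18), let-7b (1.19), let-7a (1.30) and let-7c (1.32). Between 1000 and 10000 CPM these were miR-27b (1512, 1363 and 1266 CPM, 1.19-fold), miR-383 (2468, 2852 and 3783 CPM, 1.53-fold), miR-125a-5p (3991, 2108 and 2615 CPM, 1.89-fold) and miR-127 (12289, 6530 and 6347 CPM, 1.94-fold). The next in order was miR-26a at 2.01-fold. All these ratios, and their order, rest on library totals. With the TMM scaling given below, let-7c and let-7b were no longer under 2-fold. MiR-383 lies in an intron of Sgcz, and miR-127 lies antisense to Rtl1 in the imprinted Dlk1-Dio3 locus.

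From 100 to 1000 CPM the miRNAs that held included miR-138, an inhibitor of dendritic spine growth (718, 958 and 837 CPM), miR-101b (1106, 606 and 976 CPM), miR-25 (848, 560 and 559 CPM) and miR-99b (634, 511 and 523 CPM). The others were miR-148b, miR-323-3p, miR-434-5p, miR-127*, miR-27a, miR-300, miR-341, miR-540-3p, miR-672, miR-139-5p and let-7d*. Let-7d* was the least abundant of them and one of the steadiest, with 146, 123 and 141 CPM.

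The other end of the range held several of the brain's best-known miRNAs. After miR-137 with a ratio of 1179, the widest ratios among miRNAs of at least 1000 CPM belonged to miR-23b (9192, 165 and 918 CPM, 55.8-fold), miR-132 (30.3-fold) and miR-23a (5222, 236 and 978 CPM, 22.1-fold). MiR-124 (14.1-fold), miR-9* (2287, 166 and 1461 CPM, 13.8-fold) and miR-222 (2156, 8214 and 625 CPM, 13.1-fold) came next. MiR-107 (5478, 4625 and 440 CPM, 12.5-fold), miR-103 (11137, 12073 and 1065 CPM, 11.3-fold) and miR-369-5p (2522, 1214 and 236 CPM, 10.7-fold) completed the 10.

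No single library was behind these gaps. The highest value of the 74 miRNAs with at least a 4-fold range was in index 3 for 33, in index 7 for 18 and in index 11 for 23, and the lowest in index 3 for 8, in index 7 for 36 and in index 11 for 30. Index 3 was thus more often high and index 7 more often low. This was not particular to the 74. Over all 142 miRNAs the highest value was in index 3, 7 and 11 for 61, 40 and 41. The lowest was there for 18, 68 and 56.

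**Figure D3:**
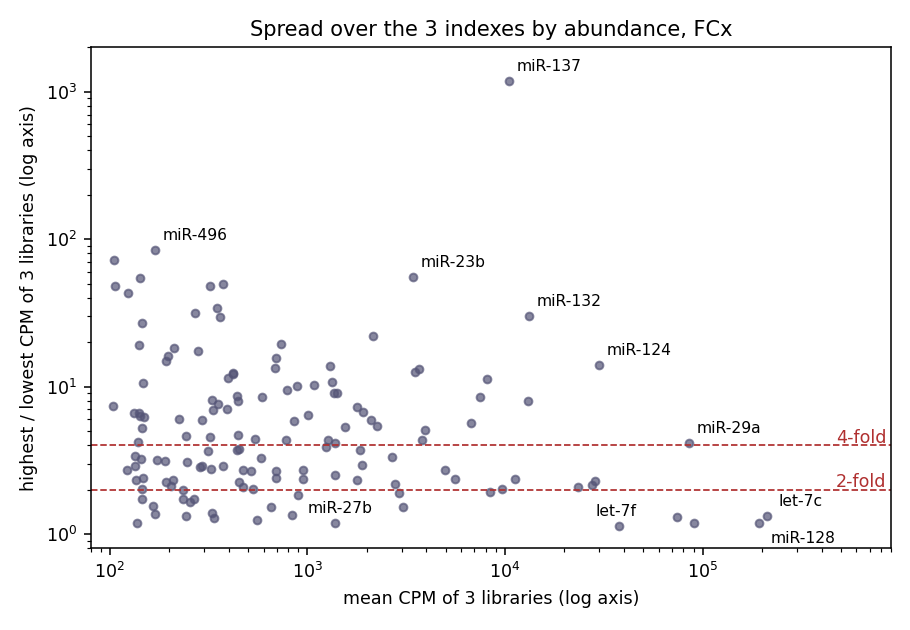
Ratio of the highest to the lowest CPM of the 3 libraries (y axis, log scale) against the mean CPM (x axis, log scale) for the 142 FCx miRNAs averaging 100 CPM or more, 1 point per miRNA, with dashed lines at 2-fold and 4-fold. Of these, 24 lie under the lower line and 74 on or above the upper one, and miR-137 is the highest point at 1179.

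Grouped by seed, the detected miRNAs with a RefSeq sequence fell into 251 families, of which 34 had at least 2 detected members. The 8 most abundant families held 81.2, 84.5 and 89.4% of the counts. Names without a RefSeq sequence in the table used, miR-124 and miR-30d foremost, held 5.66, 7.61 and 1.83% and were left out of the families.

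The let-7 family held 46.6, 52.5 and 45.9% of the counts (48.3% ± 3.62), a ratio of 1.14 between libraries. All 9 of its members exceeded 100 CPM. Let-7c was its largest member with 40.3, 47.1 and 43.2% of the family, followed by let-7b with 18.3, 19.4 and 18.6%, let-7a with 16.7, 12.1 and 18%, and let-7f with 8.22, 6.67 and 8.69%.

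The minor let-7 members had wider ranges over the libraries than these 4. Let-7e, let-7d and let-7g ranged over 2.28-fold, 2.07-fold and 2.36-fold. Let-7i was at 6867, 2514 and 5504 CPM and miR-98 at 835, 339 and 910 CPM, and both, like let-7g, were lowest with index 7. None of the 9 reached a 4-fold range, beside 52.1% of all 142 miRNAs. On library totals, 4 of the 9 stayed under 2-fold, beside 16.9%.

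MiR-128 was the only member of its seed family found here and held 19.6, 17.7 and 20.8% of the counts (19.4% ± 1.58). It is made from 2 hairpins, Mir128-1 in an intron of R3hdm1 (NCBIM37, chr1:130098938-130099007, plus strand) and Mir128-2 in an intron of Arpp21 (chr9:112021140-112021215, minus strand), which give the same mature miRNA. The counts cannot say which gene supplied it.

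The miR-29 family came next with 5.13, 7.10 and 15.4% (9.22% ± 5.47), which is a 3.01-fold range. Its make-up changed as well as its size. MiR-29a formed 70.7% of the family with index 3 but 95.9% and 97.6% with the others, and miR-29c formed 28.7, 3.65 and 1.82% (14698, 2591 and 2802 CPM). MiR-29b stayed small at 330, 343 and 884 CPM.

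**Figure D4:**
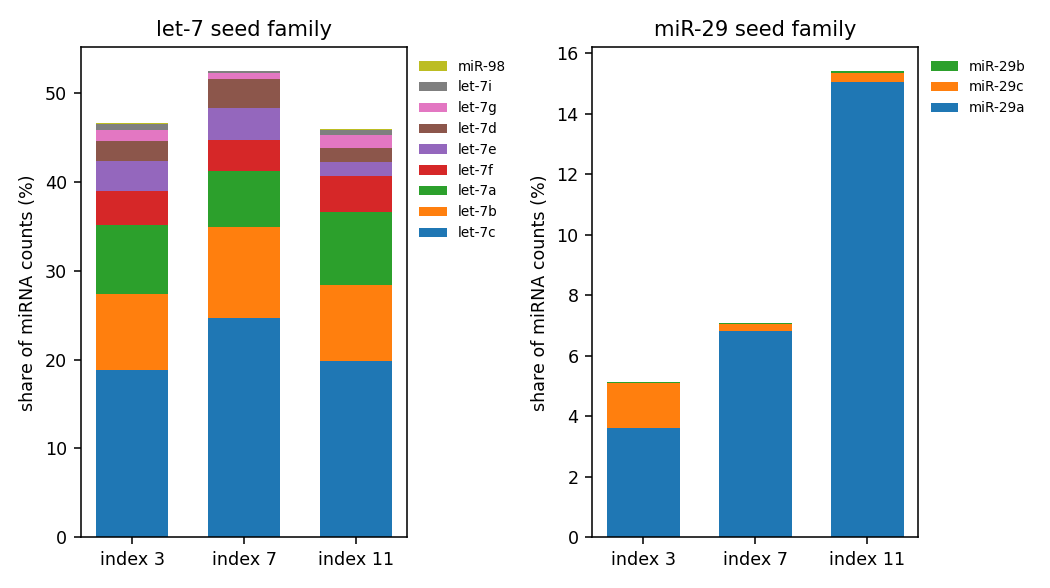
Share of miRNA counts (y axis, %) of the let-7 (left) and miR-29 (right) seed families in the 3 FCx libraries, with bars stacked by member. The let-7 bars reach 46.6, 52.5 and 45.9% with let-7c as the largest part, and the miR-29 bars reach 5.13, 7.10 and 15.4% with miR-29a as the largest part.

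Among the families with a sequence, miR-9 was the next with 2.76% ± 0.991 of the counts. The miR-125 family followed with 3.11, 0.553 and 1.14%, and in it miR-125a-5p formed 12.8% with index 3 but 38.2% with index 7, where miR-125b-5p was low. The other member, miR-351, had a mean of 42.5 CPM.

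MiR-132 and miR-212, neighbours on chromosome 11 with a shared seed, made up 1.72, 0.0889 and 2.29%. MiR-212 was at 432, 158 and 740 CPM and was lowest with index 7, as miR-132 was, but the gap was smaller (4.68-fold). The miR-26 family held 1.67, 1.23 and 0.790%, with miR-26b at 3096, 3770 and 1127 CPM.

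The miR-103 family, miR-103 and miR-107, held 1.66, 1.67 and 0.151%. Both members were lowest with index 11, and miR-103 formed 67.0, 72.3 and 70.8% of the family, so their proportion was nearly constant while their level was not. Their hairpins lie in introns of Pank3, Pank2 and Pank1, the pantothenate kinase genes.

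Hairpins were located on NCBIM37, the build of the files, for 363 of the 370 miRNAs, at 294 hairpins. Of these, 150 lay in 42 clusters of at least 2 hairpins with neighbours within 10 kb on the same strand, and they held 59.7, 64.9 and 67.8% of the counts (64.1% ± 4.09). Introns of protein-coding genes on the same strand held 106 hairpins and 27.9% ± 2.71 of the counts, of which miR-128 alone gave 19.4%. Exons of such genes held 14 hairpins and 1.08% ± 0.314, and noncoding transcripts 41 hairpins and 11.0% ± 0.249. A further 15 hairpins lay only on the opposite strand of a gene and held 13.1% ± 1.01. The 118 hairpins outside annotated genes held 46.8% ± 2.11. For the 38 miRNAs with more than 1 hairpin the counts were divided equally over them, which the data cannot check.

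The 2 leading clusters both contain a let-7c hairpin. Mirlet7c-2 and Mirlet7b, 0.801 kb from end to end on chromosome 15 (chr15:85537033-85537833), held 18, 22.6 and 18.5% of the counts. Mir99a and Mirlet7c-1 on chromosome 16 (chr16:77599181-77599995), in an intron of Gm11146 on the opposite strand, held 9.60, 12.6 and 11.7%. Of their minor products, let-7b* was at 889, 51.3 and 18.4 CPM and let-7c-1* had 2 counts in all.

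Mir29a and Mir29b-1 on chromosome 6 (chr6:31012660-31013093) came next by the mean with 3.64, 6.82 and 15.1%, nearly all of it miR-29a. This place rested on index 11, without which its mean share was 5.23% against 8.11% for the cluster that follows. Mirlet7d, Mirlet7f-1 and Mirlet7a-1 on chromosome 13 (chr13:48631381-48633641) held 8.06, 8.16 and 7.70% (7.97% ± 0.244). On library totals this was the steadiest share of the 8 leading clusters, with a ratio of 1.06. Mir100 and Mirlet7a-2 on chromosome 9 (chr9:41339508-41344894), in an intron of D230004N17Rik, held 3.93, 3.18 and 4.19%, and of this miR-100 gave only 253, 80.7 and 656 CPM.

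Mir99b, Mirlet7e and Mir125a on chromosome 17 (chr17:17967152-17967843) held 3.87, 3.87 and 1.89%. Mirlet7f-2 and Mir98 in an intron of Huwe1 on the X chromosome (chrX:148346889-148347864) held 2, 1.79 and 2.08%. Of the 8 leading clusters, 7 thus contain let-7 or miR-29 hairpins. The exception was the group from Mir770 to Mir136 on chromosome 12 with 2.29, 1.37 and 1.38%.

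This last group belongs to the imprinted Dlk1-Dio3 locus, whose miRNAs are expressed from the maternal chromosome. From Mir770 to its last hairpin (chr12:110801902-110982005), 44 hairpins gave 67 detected miRNAs, more than any other locus, but only 3.67, 2.24 and 2.41% of the counts (2.77% ± 0.781). Of the 67, 33 averaged 100 CPM or more and 5 averaged 1000 CPM or more. Among the 33, 7 stayed under 2-fold over the libraries, beside 16.9% of all 142, and 14 reached 4-fold, beside 52.1% of all 142, with a median ratio of 3.14, against 4.57 for the 109 other miRNAs of at least 100 CPM.

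The proximal part of the locus, antisense to Rtl1 and along Meg3, carried its strongest products. MiR-127, which targets the Rtl1 transcript, was the most abundant. MiR-434-3p was at 6119, 1202 and 4437 CPM and miR-433 at 2527, 3985 and 1809 CPM. Their neighbours were far lower. MiR-136* (365, 365 and 129 CPM), miR-434-5p (294, 321 and 184 CPM) and miR-127* (273, 183 and 303 CPM) led them.

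The others of this group above 100 CPM were miR-540-3p (146, 166 and 198 CPM), miR-770-3p (220, 91.7 and 129 CPM), miR-337-5p (176, 234 and 12.3 CPM) and miR-673-5p (99.6, 224 and 78.2 CPM). A further 10 members of the group had means between 0.684 and 94.1 CPM. In the distal group of 30 hairpins that starts with Mir379, which held 1.34, 0.853 and 1.01% of the counts, miR-369-5p and miR-411 (1162, 493 and 2156 CPM) led. MiR-541 (483, 1318 and 1042 CPM), miR-382 (894, 1366 and 576 CPM) and miR-376a (1850, 313 and 195 CPM) followed. The most abundant single miRNA of this distal group thus differed by library, being miR-369-5p with index 3, miR-382 with index 7 and miR-411 with index 11.

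**Figure D5:**
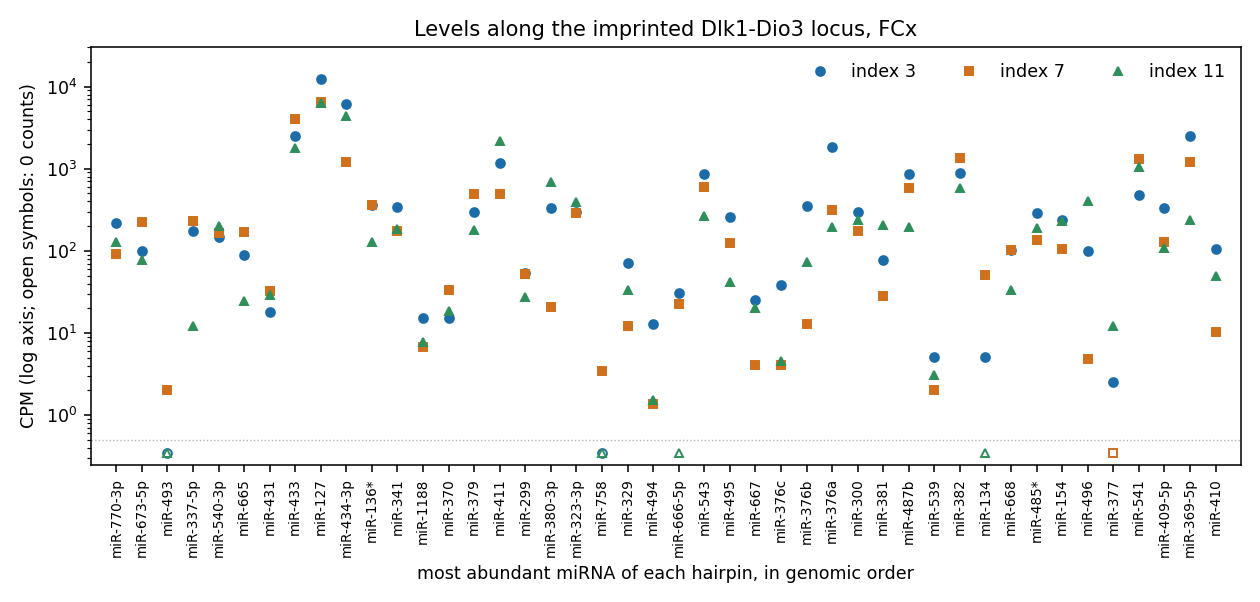
CPM (y axis, log scale) of the most abundant miRNA of each of the 44 hairpins along the Dlk1-Dio3 locus in genomic order (x axis), with 1 symbol per FCx library and open symbols for 0 counts. MiR-433, miR-127 and miR-434-3p form the peak near the start, and in most others the symbols of the 3 libraries come in changing order.

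Several hairpins that lie side by side gave miRNAs with very different spread, and the pairs named here were chosen after their values were seen. Mir23b and Mir27b lie within 0.792 kb together with Mir24-1 in an intron of 2010111I01Rik (chr13:63401792-63402583). MiR-23b ranged over 55.8-fold and miR-27b over 1.19-fold. The related cluster on chromosome 8 (chr8:86732417-86732820) repeated this, with miR-23a ranging over 22.1-fold and miR-27a (217, 222 and 290 CPM) over 1.33-fold. The sum of the first cluster followed miR-23b and was 1.09, 0.197 and 0.235% of the counts.

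Likewise, miR-99a (2067, 2697 and 17696 CPM) ranged over 8.56-fold beside let-7c, and let-7e ranged over 2.28-fold beside miR-99b with 1.24-fold. In the miR-200b cluster on chromosome 4, miR-200a and miR-429 were highest with index 7 and miR-200b with index 3. In these clusters the miRNAs did not share the order of the libraries.

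The 2 arms of a hairpin also changed their proportion with the library. Star strands, the arms named as the minor product in miRBase, held 1.11, 0.486 and 0.650% of the counts (0.747% ± 0.322), and 74 were detected. With a counted partner arm there were 62. The star strand was the smaller part in all 3 libraries for 39 of the 62 and the larger in all 3 for 5: miR-140*, miR-330*, miR-136*, miR-322* and miR-325*. Pairs with few counts were kept, so some of these rest on little. MiR-325* had 4, 3 and 11 counts, and miR-29b*, among the 39, had 0, 1 and 1.

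MiR-140*, from an intron of Wwp2, was at 1398, 1976 and 782 CPM and made up 99.6, 99.9 and 99.8% of its pair, since miR-140 had a mean of 2.67 CPM. MiR-136* made up 94.7, 93.7 and 95.5% and miR-330* (672, 402 and 95 CPM) 64.9, 62.0 and 61.4%. In these 3 the named star arm was the major product with every index, although the level of miR-330* ranged over 7.07-fold.

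In other pairs the larger arm changed with the library. MiR-30e* (800, 93.0 and 434 CPM) was 66.5, 15.2 and 85.2% of its pair, and miR-485* (289, 136 and 190 CPM) 60.8, 42.0 and 76.5%. MiR-674* (17.9, 4.10 and 294 CPM) was 14.3, 0.430 and 90.1%. Each of these 3 pairs had a different larger arm in at least 1 library.

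Among the rest of at least 100 CPM, miR-9* was 11.7, 0.448 and 4.84% of its pair and miR-30a* (1702, 264 and 1064 CPM) 19.5, 3.74 and 26.4%. MiR-382* (848, 17.1 and 257 CPM) was 48.7, 1.24 and 30.9% and miR-411* (166, 24.6 and 398 CPM) 12.5, 4.76 and 15.6%. MiR-127* stayed between 2.18 and 4.56% of its pair. Let-7b* and let-7d* were at most 1.03% and 0.894% of theirs.

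Arms named 5p and 3p also varied in proportion. MiR-125b-5p formed 99.9, 97.7 and 99.8% of its pair and miR-129-5p (1119, 2090 and 535 CPM) 70.3, 92.7 and 69.5%. Of the 2 arms of miR-369, the 5p arm held 95.7% with index 3, 73.8% with index 7 and 13.5% with index 11, and miR-369-3p was at 112, 432 and 1507 CPM.

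The tissue label was checked against lists of miRNAs known from particular cell types. The 9 neuronal miRNAs summed to 292402, 273671 and 265783 CPM, a 1.10-fold range that rests on miR-128, and 7 of them exceeded 100 CPM. The other 2, miR-134 (5.11, 50.6 and 0 CPM) and miR-153 (5.11, 13.7 and 15.3 CPM), were rare. Over the 15 miRNAs with a published role in synaptic plasticity, which share 6 names with the neuronal list, 11 exceeded 100 CPM.

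Of the plasticity miRNAs not yet given, miR-181a was at 2744, 1188 and 1427 CPM and miR-485 at 187, 188 and 58.2 CPM. MiR-329 (71.5, 12.3 and 33.7 CPM) and miR-34a (12.8, 14.4 and 19.9 CPM) were low. MiR-188-5p had no count in any library, which allows up to 7.66, 2.05 and 4.60 CPM.

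Glia were represented by the oligodendrocyte miRNAs, with miR-219 at 1484, 340 and 507 CPM, miR-338-3p at 112, 677 and 21.5 CPM and miR-338-5p at 28.1, 135 and 27.6 CPM. The 3 did not move together, as miR-219 was highest with index 3 and both arms of miR-338 with index 7. Of 6 microglial and leukocyte miRNAs, miR-146a (227, 71.8 and 222 CPM) and miR-150 (2.55, 3.42 and 35.3 CPM) exceeded 10 CPM, and the other 4, with miR-223 and miR-155 among them, had means from 0.967 to 9.77 CPM.

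MiRNAs of blood and vessels were present at low levels. The red-cell miRNAs miR-451 (35.8, 140 and 21.5 CPM) and miR-486 (43.4, 31.5 and 42.9 CPM) were found, and miR-144 had 1 count. Of the vascular miRNAs, miR-143 of smooth muscle was at 347, 198 and 576 CPM, endothelial miR-126-5p at 71.5, 63.6 and 72.0 CPM and miR-126-3p at 7.66, 10.9 and 41.4 CPM. MiR-145, a neighbour of miR-143, had a mean of 5.23 CPM.

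Epithelial miRNAs were higher than these. The list of 9 summed to 2534, 5657 and 1448 CPM, led by miR-200a (350, 3142 and 581 CPM), miR-200b (1847, 315 and 411 CPM) and miR-429 (99.6, 1936 and 172 CPM), with miR-200c at 153, 56.8 and 193 CPM. MiR-141 (5.11, 96.5 and 12.3 CPM), miR-203 (61.3, 18.5 and 44.4 CPM), miR-200b* (mean 37.2 CPM) and miR-200a* (7.66, 10.9 and 13.8 CPM) were low. MiR-205, an epidermal miRNA, had 1 count. Whether cells other than those of the cortex supplied the miR-200 family was not tested.

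Sensory and choroid plexus miRNAs were scarce, with miR-182 (40.9, 76.6 and 56.7 CPM), miR-183 (40.9, 59.5 and 46.0 CPM) and miR-96 (mean 9.28 CPM) for the first. For the second, miR-204 was at 33.2, 2.05 and 41.4 CPM and miR-34c at 56.2, 58.2 and 6.13 CPM, while the other 6 had means of at most 4.83 CPM. The endocrine miR-375 was at 81.8, 51.3 and 106 CPM.

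Of the muscle miRNAs, miR-1 was at 105, 1066 and 87.4 CPM, miR-206 at 17.9, 12.3 and 6.13 CPM, and miR-133a and miR-133b had means of 3.80 and 0.511 CPM. MiR-1 thus stood out with index 7 and without the other muscle miRNAs. Another name, miR-1-2-as, had counts of 41, 1566 and 57 against 41, 1558 and 57 for miR-1, equal within 2% in each of the 6 files, and whether both names count the same reads was not tested.

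MiRNAs of unrelated tissues were near or at 0. Liver miR-122 had a mean of 7.05 CPM. The 5 miRNAs of the Hox clusters, which mark the posterior body axis, had means of at most 2.61 CPM, and the 7 miRNAs of embryonic stem cells, miR-302 and miR-290 family members, had no count at all.

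The genome alignments deposited beside the counts gave the position of the reads on NCBIM37. Of 726283, 2240993 and 1620437 alignments, 22.4, 12.7 and 2.90% were shorter than 14 nt and were left out. Of the others, 65.1, 68.9 and 40.4% fell into miRNA hairpins. Lengths were 22 nt for 88.0, 84.8 and 77.6% and 17 nt for 6.46, 6.55 and 3.10%, lengths of 19 to 21 nt made up at most 0.341%, and none exceeded 23 nt. The library with index 11 also had 15.6% at 18 nt, against 0.404% and 0.202% with the others. The RefSeq sequence of miR-128 has 21 nt, a length nearly absent here. The alignment lengths need therefore not be those of the miRNAs, and the reason was not tested.

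The 5′ ends of the most abundant miRNAs were precise. For let-7c 98.7, 99.3 and 99.7% of the alignments within 5 nt began at the RefSeq 5′ end, for miR-128 99, 99.5 and 99.8%, and for miR-29a 93.6, 97.3 and 97.6%. Since the seed is counted from this end, nearly all alignments of these miRNAs begin where the seed shown above is counted from.

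Other miRNAs were less uniform in the 5′ end or in alignment length, with the limit on lengths given above. Of them, 5 were chosen here after their values were seen. MiR-9* began 1 nt downstream of the RefSeq end in 63.7% of its 2072 alignments and at that end in 33.6, 42.6 and 36.3%. MiR-137 began at its annotated end in 85.8, 85.2 and 83.3%, and 37.8% of its alignments were 14 to 18 nt long. MiR-9 kept its 5′ end in 84.3, 98.1 and 95.8%, but 54.2% of its alignments were 14 to 18 nt long, against 2.53% for let-7c and 1.09% for miR-128. MiR-132 began at its annotated end in 94.4, 87.7 and 94.5%, and miR-222 in 95.6, 91.6 and 96.5%.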

How the data were processed

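Per the labels and the study's methods, small RNA of 1 pool from 3 mice was sequenced after ligation of indexed 5′ adaptors. The authors removed index and 3′ adaptor, discarded homopolymer, mitochondrial and ribosomal reads as well as those shorter than 14 nt, and used Bowtie (at most 2 mismatches) to place what remained on NCBIM37 and on the mature miRNAs of miRBase release 11. The deposited tables hold raw counts per miRNA name. The deposited alignment files hold positions with a constant alignment score, which was not used as a measurement. Despite the stated removal, alignments shorter than 14 nt made up 22.4, 12.7 and 2.90% of them with index 3, 7 and 11. The reason for this was not tested.

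The members and lists were chosen with earlier results of these data known. Counts of the 2 runs of an index were summed and divided by the library total (CPM). A miRNA was detected with at least 2 counts over the 6 files. No group was compared and no test was run, since the 3 libraries come from 1 RNA pool and the other brain region was not analysed here. Names were matched to RefSeq mature sequences (351 names, 69 without). RefSeq hairpins were placed on NCBIM37 by exact sequence, together with GENCODE vM1 hairpins. Names that RefSeq also uses, or that were listed as renamed, took that sequence without a check against the alignments. For other names an arm was assigned only where its counts and genome alignments fitted together within 5-fold. Seeds were bases 2 to 8, and clusters were hairpins on 1 strand with neighbours within 10 kb.

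Named miRNAs were the 15 highest by mean CPM, the 10 smallest and 10 largest ratios of the highest to the lowest library at a mean of at least 1000 CPM, members of at least 100 CPM of the 8 highest families and clusters, the cell type lists, and star strands of at least 100 CPM. Alternatives were single lanes, summed counts, the median, each library left out, TMM scaling (edgeR 4.0.16, R 4.3.3), other count filters, seeds, cluster distances, hairpin divisions and ratio thresholds. Python 3.11.15 with pandas 2.3.3, NumPy 2.4.6 and SciPy 1.17.1 was used, and the functions were tested on simulated data.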

Additional observations from a re-analysis of the deposited data

Results flagged for a closer look

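The groups of 3 libraries are too small for a search for outlying samples, and only data outside the count tables could be examined here. Among hairpins whose miRNAs have no name in the count tables of these samples, 12 had at least 100 genome alignments of 14 nt or more, 8903 in all. Mir1839 led with 493, 3857 and 668 alignments (index 3, 7 and 11), which is 875, 1971 and 425 per 1000000 alignments of that library. Mir1981 had 166, 897 and 160, Mir3099 had 256, 349 and 42, and Mir412, of the Dlk1-Dio3 locus, had 31, 191 and 1. The sources used here give no control sample without these miRNAs.

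A position outside every annotated miRNA hairpin, in an intron of Ctdp1 on the opposite strand, held 493372 alignments of 22 nt, which was 1.29% of the alignments with index 3, 4.92% with index 7 and 24.8% with index 11. The next was on chromosome 3 outside annotated genes (chr3:122694220-122694241, minus strand) with 5471, 33602 and 109348 alignments. At chr13:69180481-69180498 there were 129750 alignments of 18 nt with index 11, against 1013 and 1412 with the others, and at chr3:122694224-122694241 there were 96440 of 18 nt, against 752 and 1042. The intron of Rbfox1 held 23776, 21467 and 13616 alignments of 22 nt at chr16:7408990-7409011. The files give 1 position per read, and the identity of these RNAs was not tested.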

How the results depend on the processing

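Of 571 values recomputed for 55 results, 18 moved by 1 SD of the 3 libraries or more or, for counts, by over 1.5 times. A mean of 3 cannot move by 1 SD when a library is left out or the median is taken, so that measure says nothing of stability there. By a limit of 1.5 times, added after seeing the data, 10 of 29 levels moved when a library was left out: without index 3, miR-125b-5p (13066 to 6068 CPM), miR-137 (10515 to 44.0), miR-23b (3425 to 541), miR-23a (2145 to 607), miR-9* (1304 to 813) and miR-369-5p (1324 to 725), without index 7, miR-124 (29926 to 16001) and miR-222 (3665 to 1391), and without index 11, miR-29a (84945 to 52137) and miR-132 (13232 to 8769). Of the shares, the miR-125 family moved from 1.60 to 0.845% without index 3, and without index 11 the miR-29 family from 9.22 to 6.11%, the miR-132 family from 1.37 to 0.906% and the Mir29a cluster from 8.52 to 5.23%. The number of miRNAs under 2-fold over the indexes (24) was 43 to 71 when a library was left out (43 without index 3, 66 without index 7 and 71 without index 11), 13 with a limit of 1.5-fold and 56 with 3-fold, and the number of at least 4-fold (74) was 33 to 49 with a library left out (49, 39 and 33 in the same order), as fewer libraries give smaller ranges. Giving the whole count to each cluster of a miRNA with several hairpins raised the 5 let-7 clusters concerned, the first from 19.7% to 30.2% and the second from 11.3% to 21.9%. With the pooled lanes only, let-7f was at 34594 CPM in place of 37735. The Mirlet7d cluster then held 7.45% in place of 7.97%, and the Mirlet7f-2 cluster 1.79% in place of 1.96%. With hairpins within 50 kb the Mir100 cluster held 4.43% in place of 3.77%. TMM factors were 1.42, 0.785 and 0.897 for index 3, 7 and 11, which divide the levels of each library by its factor, and 27 miRNAs were then under 2-fold. The 27 did not include let-7c and let-7b, which were highest with index 7 and lowest with index 3. With TMM scaling the Mirlet7d cluster held 8.22% in place of 7.97%.

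No paired analysis was possible because no comparison between groups was tested. The limit of 3 counts per library, 2.05 to 7.66 CPM, keeps the 117 miRNAs under 10 CPM from being compared. RNA of 1 pool gives no spread between animals, and alignments with 2 mismatches leave close family members uncertain.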

Other observations

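Beyond the families described above, miR-99a and miR-100 on one side and miR-222 and miR-221 on the other differed in the index at which they were highest. MiR-99a and miR-100 (253, 80.7 and 656 CPM) were highest with index 11, whereas miR-222 and miR-221 (2246, 3432 and 582 CPM) were highest with index 7 and lowest with index 11. MiR-218 (388, 252 and 2606 CPM) and miR-101a (830, 1407 and 4498 CPM) also peaked with index 11, and miR-744 (1627, 2332 and 257 CPM) with index 7. MiR-30a, the most abundant miR-30 name, was at 7011, 6789 and 2963 CPM, and miR-30d, which has no sequence in the table used, at 3334, 6591 and 1527 CPM. These miRNAs were chosen after their values were seen.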
